A study of Homo sapiens with 15 samples.

Results

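BCR and ABL1, the fusion partners of BCR-ABL1, and 8 genes that carry its signal (GRB2, GAB2, CRKL, SOS1, SHC1, STAT5A, STAT5B and PTPN11) were examined for G-quadruplex (G4) sites, out of 20163 protein-coding genes. They were taken by name, for their part in the signalling of this line. A site was counted at a gene when it lay within 1 kb of one of its GENCODE start sites on GRCh37 (hg19) or inside the gene. Of 8940 high-confidence regions outside the mitochondrial genome, 15 lay at these genes. The peak lists of the 5 libraries held 41 and 31 such peaks in libraries 1a and 1c, and 11, 12 and 22 in 2a, 2b and 2c.

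The cells were K562, a human chronic myelogenous leukaemia line that carries the BCR-ABL1 fusion, grown asynchronously. Chromatin cross-linked with formaldehyde was precipitated with BG4, an antibody raised against G4 structures, and sequenced. There were 2 biological replicates, with technical libraries 1a and 1c in the first and 2a, 2b and 2c in the second. The 2 K562 input libraries and the bisulfite libraries of HaCaT keratinocytes (4 with 10 uM entinostat for 48 h and 4 controls) were not analysed here.

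A G4 is a four-stranded fold that guanine-rich DNA can adopt, often near gene starts. BCR-ABL1 joins the first exons of BCR to the kinase exons of ABL1, and K562 is known to carry the junction between BCR exon 14 and ABL1 exon 2, with extra copies of the fused segment. The always active kinase binds the adaptors GRB2, CRKL and SHC1, recruits GAB2, SOS1 and the phosphatase SHP2 (PTPN11), which feed RAS and PI3 kinase signalling, and leads to phosphorylation of the transcription factors STAT5A and STAT5B.

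Each list covered between 8044 and 12484 peaks outside the mitochondrial genome. The fold enrichment and −log10 p of a peak are the authors' own values, used to describe and rank peaks within a list. Means over libraries summarise lists that may differ in scale, since the depth of the libraries is unknown. Of 15 erythroid genes fixed as markers of the K562 lineage, 6 had a high-confidence region within 1 kb of a start site (40%, against 35.5% of all protein-coding genes), led by ZFPM1 with folds of 10.9 to 19.7 and followed by EPOR, NFE2 and TAL1, while ALAS2, HBA2 and HBG1 had no peak there in any library. Of 7 keratinocyte genes, DSG3, IVL, KRT1 and KRT10 among them, 0 had one. A BG4 region is no measure of expression.

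High-confidence regions stood within 1 kb of a start site at 7 of the 10 genes, which were BCR, ABL1, GRB2, GAB2, CRKL, SOS1 and SHC1, against 35.5% of all protein-coding genes. The same 7 had a peak there in all 5 libraries, against 23.7% of all genes. STAT5A and STAT5B had one in 3 libraries each and PTPN11 in 1. By library, 9 of the 10 genes had a peak within 1 kb of a start site in 1a, where 39.6% of all genes did, and 9 did in 1c, against 33.6%. In 2a 7 of the 10 did, against 32.6% of all genes, in 2b 7, against 36.1%, and in 2c all 10, against 39.9%. The genes had between 2 and 23 annotated start sites each, a number that affects how easily a gene is counted. BCR was the 1 gene of the 10 with a high-confidence region inside it and more than 1 kb from its start sites, as were 5.02% of all genes.

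BCR, whose product supplies the oligomerisation domain of the fusion, had 5 high-confidence regions. The widest, of 659 bp at chr22:23522592-23523250, covered the start of BCR-201, its main (MANE) transcript, and reached into the coding part of exon 1. Its fold enrichment was 6.26 and 6.04 in libraries 1a and 1c, and 5.75, 4.73 and 3.92 in 2a, 2b and 2c. All 5 values were below the median of their own list, which lay between 6.03 and 6.78. BCR was also 6th or 7th among the leading regions of the 7 genes in every library. A further region, at chr22:23566154-23566342 in intron 1, was found in all 5 libraries, with folds of 5.63, 5.10, 3.54, 3.55 and 3.10 in 1a, 1c, 2a, 2b and 2c. It lay in the body of the gene, 25635 bp from the nearest BCR start site. Its percentile of fold was 26.9 and 20.0 in 1a and 1c, but 0.66, 1.44 and 0.84 in 2a, 2b and 2c. The remaining regions, at chr22:23560773-23560909, chr22:23594022-23594145 and chr22:23623999-23624292, were found in 3, 3 and 4 libraries, all in introns. Within replicate 2 the first and second rested on 2c alone. The folds there were 2.50 and 2.26, at the 0.126 and 0.036 percentile of that list. The second lay 803 bp from the start of BCR-213, so it is counted as a start-site region.

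The 2 BCR regions present in every library are shown because they differ in sequence, the first at the start of the gene and GC-rich, the second inside it. Each is read 5′ to 3′ from GRCh37 on the strand with more guanine runs, and capitals mark runs of 3 or more G. The first is 201 bases of the minus strand, chr22:23522851-23523051, and the second the whole region on the plus strand, chr22:23566154-23566342.
BCR start-site region: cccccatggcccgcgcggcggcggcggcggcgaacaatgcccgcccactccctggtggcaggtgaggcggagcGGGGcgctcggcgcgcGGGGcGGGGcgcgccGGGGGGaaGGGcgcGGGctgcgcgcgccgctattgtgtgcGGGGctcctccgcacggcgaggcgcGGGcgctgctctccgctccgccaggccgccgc
BCR intron 1 region: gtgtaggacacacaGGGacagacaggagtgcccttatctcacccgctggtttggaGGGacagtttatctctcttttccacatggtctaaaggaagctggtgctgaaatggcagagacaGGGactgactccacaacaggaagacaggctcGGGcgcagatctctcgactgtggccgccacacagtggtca

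A canonical G4 motif was taken as 4 guanine runs, each at least 3 bases long, separated by loops of 1 to 7 bases, searched on both strands. The BCR start-site region held 2, and it was the 1 region of the 15 that held any, against 34.7% of all 8940 regions. Among regions at start sites it was 1 of 12, against 37.5% of all such regions. The longer motif, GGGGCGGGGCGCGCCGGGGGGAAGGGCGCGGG at chr22:23522931-23522962 on the minus strand, contained the peak summit of libraries 1c, 2a, 2b and 2c. The shorter, GGGCACAGGGCGGGGGGG at chr22:23522595-23522612 on the minus strand, uses a single G of its last run as a loop, and lay 16 bp from the summit of 1a. Library 2a had 2 peaks over the region, and the summit given for 2a is that of the stronger. The weaker, chr22:23522592-23522782 with a fold of 5.59, had its summit outside both motifs. With loops of up to 12 bases 3 of the 15 regions held a motif, and with runs of 2 or more G 13 did, against 50.4% and 91.8% of all regions. A match of letters is a description and not evidence of a folded structure. The BCR intron 1 region had 4 guanine runs in its 189 bases, spaced too far apart for the motif.

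ABL1, the tyrosine kinase, had 1 high-confidence region, chr9:133587948-133588241, which ended 189 bp before the start of ABL1-202, the longer transcript that begins with the upstream first exon. Its summit lay at −122543 bp from the start of the MANE transcript ABL1-201, and the start of ENSG00000288570 was also within 1 kb. The fold enrichment there was 9.74 and 10.4 in libraries 1a and 1c, and 8.27, 11.3 and 7.46 in 2a, 2b and 2c. It stood at the 73.9 percentile of fold or above in every list. The sequence of the region on the plus strand is printed to set it beside that of BCR.
ABL1 upstream region: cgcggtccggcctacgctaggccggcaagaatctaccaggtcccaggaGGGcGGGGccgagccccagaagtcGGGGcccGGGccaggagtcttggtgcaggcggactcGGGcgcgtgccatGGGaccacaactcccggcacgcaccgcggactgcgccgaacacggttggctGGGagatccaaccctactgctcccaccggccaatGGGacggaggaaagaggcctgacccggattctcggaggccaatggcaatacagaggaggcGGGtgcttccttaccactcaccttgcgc

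It had 9 runs of 3 or more G and no canonical motif, with a GC content of 67.7%. At the start of ABL1-201 itself, library 1a alone had a peak, chr9:133710603-133710799, with a fold of 3.54. Library 1a also had a peak at chr9:133761108-133761234, in the untranslated part of exon 11, with a fold of 3.38. The other 4 libraries had no further peak at ABL1.

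**Figure D1:**
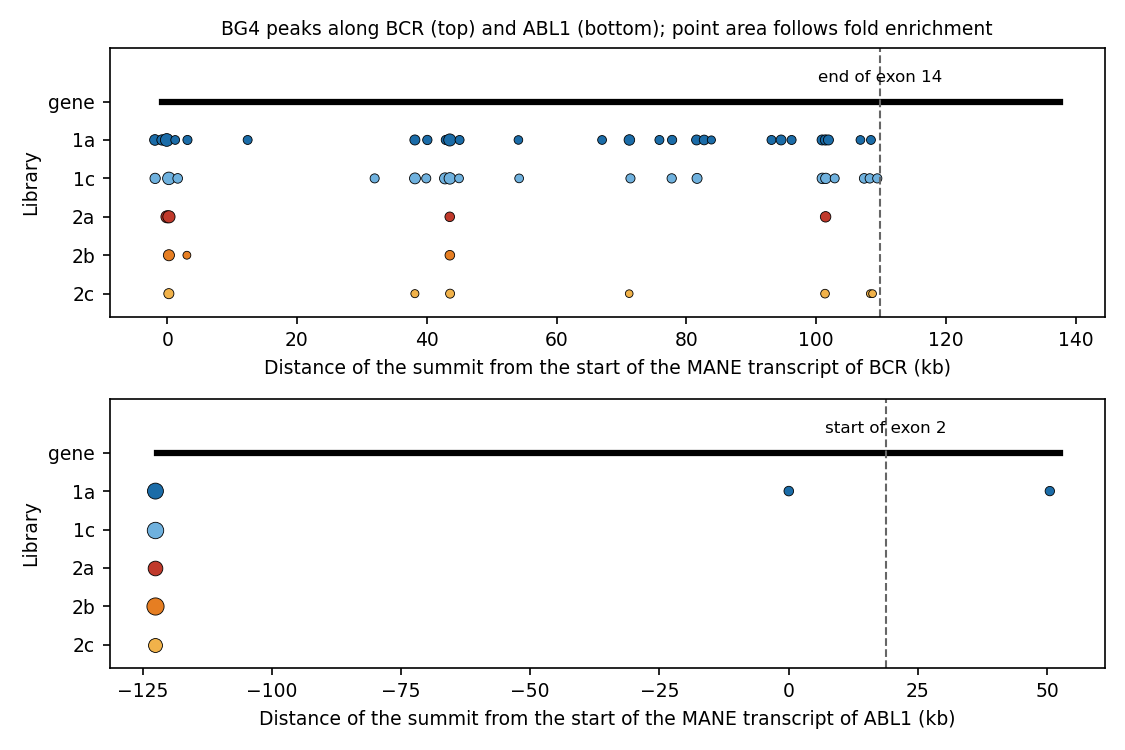
Peaks of each library along BCR and ABL1, by distance of the summit from the start of the MANE transcript in kb; the black bar is the gene, the dashed line the exon boundary of the fusion, and the area of a point follows its fold enrichment. All BCR peaks lie left of the end of exon 14, and ABL1 has 1 peak right of the start of exon 2, in library 1a.

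BCR held the most peaks of the 10 genes in 1a, 1c, 2a and 2c, and as many as SHC1 in 2b. It had 27 and 19 peaks in 1a and 1c, and 4, 3 and 7 in 2a, 2b and 2c, which ranked 3rd, 4th, 30th, 94th and 10th among 20163 genes with no correction for gene length. Genes with equal counts share the best rank, and in 2b 343 genes had 3 peaks or more. In 1a and 1c the other 9 genes together had 15 and 12, with a 1a peak shared by STAT5A and STAT5B counted at both. Per 100 kb of gene BCR had 19.5 peaks in 1a and 13.7 in 1c, but 2.89 in 2a, 2.17 in 2b and 5.06 in 2c. SHC1, a gene of 12.1 kb, had 16.5 to 24.8 per 100 kb in the 5 libraries. The BCR peaks fell at 33 places, of which 18 were found in 1 library, 8 in 2, 3 in 3, 2 in 4 and 2 in all 5.

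Every BCR peak lay before the end of exon 14, on the side that the fusion keeps. From 1 kb before the gene to the end of exon 14, a span of 111.71 kb, there were 26 and 18 peak summits in 1a and 1c, and 4, 3 and 7 in 2a, 2b and 2c, against 0 in each of the 5 libraries in the 27.6 kb past exon 14. The last peak ended between 0.362 kb (1c) and 66.3 kb (2b) before the end of exon 14. Up to exon 14 the density was 23.3 and 16.1 peaks per 100 kb in 1a and 1c, but 3.58, 2.69 and 6.27 in 2a, 2b and 2c, so replicate 2 leaves few peaks to look for in a span as short as that past exon 14. From ABL1 exon 2, where the ABL1 part of the fused transcript begins, the 33.6 kb to the end of the gene held 1 peak, in 1a. The 142 kb before exon 2 held 2 peaks in 1a and 1 in each other library. Exon 2 bounds the transcript, and the place of the break in the DNA was not determined here.

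The deposited fold and p of each peak were used to work back to the reads piled up at the summit and to the local background that the peak caller set against them, and 100% of the peaks of every list gave a whole number of reads within the tolerance. The reads at the summit of a typical peak were 14 in lists 1a, 1c and 2a, 16 in 2b and 30 in 2c (medians). At the start-site region of BCR they were 42, 40, 41, 44 and 79 in 1a, 1c, 2a, 2b and 2c, above the median in each. The median local background of the BCR peaks was 5.91 and 5.67 times the median of its list in 1a and 1c, and 5.98, 6.03 and 6.13 in 2a, 2b and 2c. It stood at the 98.1 to the 99.8 percentile of the lists. BCR peaks therefore combined many reads with a low fold: their median fold was 3.28 and 3.57 in 1a and 1c, and 4.90, 3.55 and 2.50 in 2a, 2b and 2c. In 1a 23 of the 27 and in 1c 13 of the 19 were among the lowest 5% of their list by fold. By −log10 p the start-site region of BCR stood at a mean percentile of 86.2 ± 4.17, and by fold at 28.6 ± 17.1 (SD, n = 2 biological replicates).

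**Figure D2:**
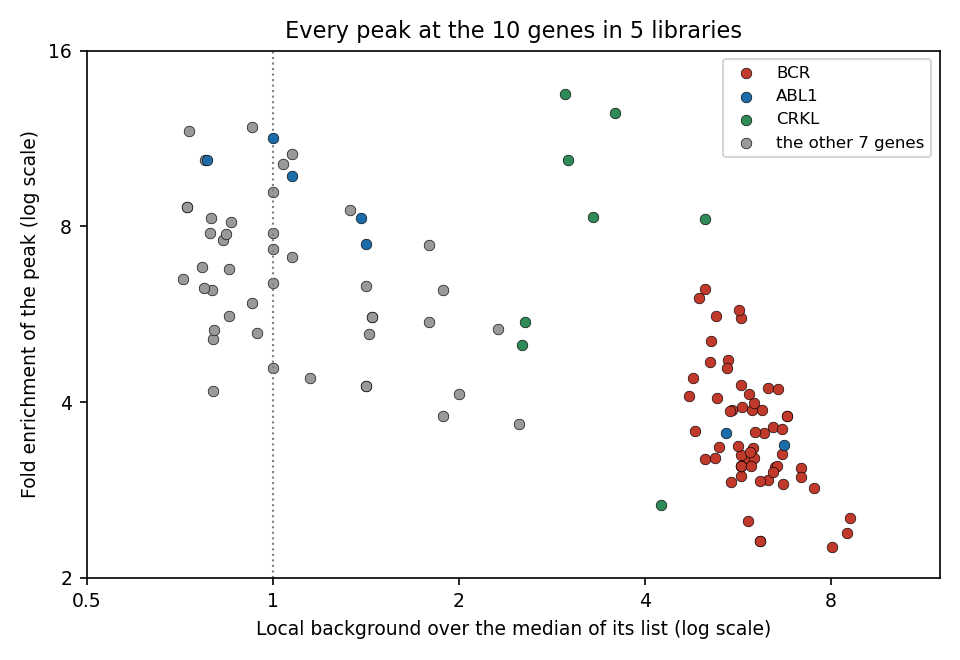
Fold enrichment of every peak at the 10 genes in the 5 libraries against its local background, divided by the median of its list, both on log scales; each point is 1 peak in 1 library. BCR peaks form a group at 4.72 to 8.59 times the median with folds of 2.26 to 6.26, joined by 2 ABL1 peaks of library 1a.

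At the other genes the median local background was lower than at BCR in every library. The highest median for another gene was 5.41 times the list median in 1a, for ABL1, whose 3 peaks there stood at 1.07, 5.41 and 6.73 times. In 1c, 2a, 2b and 2c it was 3.76, 2.97, 3.00 and 3.77 times, in each case for CRKL, whose leading region in 1c, at 5.0 times, lay within the range of the BCR peaks of that list, 4.72 to 6.67 times. Over whole lists, between 1.66% (2c) and 4.83% (1c) of peaks had a background of 3 times the median or more. The upstream ABL1 region, which lies before the exons that the fusion keeps, stood at 1.07, 0.78, 1.39, 1.00 and 1.42 times in 1a, 1c, 2a, 2b and 2c.

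The local background of peaks differed between the sides of each exon boundary of the fusion. In the 500 kb up to the end of BCR exon 14 there were 93 and 64 peaks in 1a and 1c, and 8, 8 and 13 in 2a, 2b and 2c, all with a background of at least 3 times the list median. In the 500 kb past it there were 1, 3, 2, 2 and 4, none of which reached 3 times. High-confidence regions numbered 10 up to the boundary and 1 past it. On chromosome 9, the 500 kb from ABL1 exon 2 on held 80, 54, 8, 6 and 12 peaks in 1a, 1c, 2a, 2b and 2c, of which 75, 51, 6, 5 and 11 reached 3 times. The 500 kb before exon 2 held 7, 5, 3, 2 and 3, of which 1 did, the 1a peak at the start of ABL1-201, whose summit was 18.8 kb before exon 2. The peaks that fix the edge on chromosome 22 were that of 1c 0.467 kb before the end of exon 14, at 6.67 times, and the next, 112 kb past it, at 0.71 times. Between them no list had a peak, so the peaks place the edge no more finely. On chromosome 9 the outermost peak at 3 times or more, that of 1a 18.8 kb before exon 2, stood at 5.41 times. The next, that of 2b 141 kb before exon 2, stood at 1.00 times. Past exon 2 the first peak lay at 31.7 kb in 1a and 41.6 kb in 1c. In 2a, 2b and 2c it lay at 85.2, 87.2 and 87.2 kb, so the peaks do not place a change at exon 2 itself. The number of DNA copies was not measured here, and its part in these values was not tested.

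**Figure D3:**
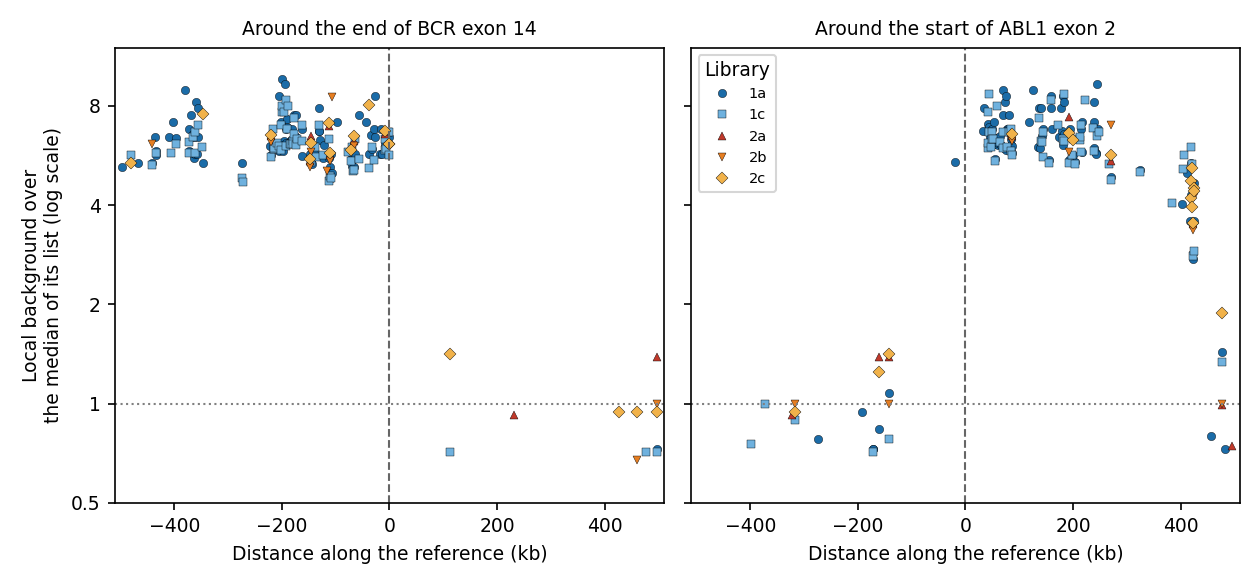
Local background of each peak over the median of its list (log scale) against distance along the reference in kb from the end of BCR exon 14 (left) and the start of ABL1 exon 2 (right), 1 point per peak and library; the dotted line is the list median. Peaks up to BCR exon 14 stand at 4.71 to 9.66 times the median and those past it at 0.68 to 1.42 times; past ABL1 exon 2 most stand above 3 times, and before it 1 does.

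The adaptors that bind the kinase had start-site regions of varied strength. CRKL, an SH2 and SH3 adaptor and a well known substrate of BCR-ABL1, had the highest mean fold of the 7 leading regions, 10.6 ± 0.251 (SD, n = 2). At chr22:21271146-21271870, a region of 725 bp over the start of CRKL-201 and some untranslated bases of exon 1, its fold was 12.5 and 8.23 in 1a and 1c, and 13.5, 10.4 and 8.29 in 2a, 2b and 2c. It was first of the 7 genes in 3 libraries, and in 1c it was 5th. The reads at its summit were 64, 56, 57, 58 and 102 in 1a, 1c, 2a, 2b and 2c, more than at the BCR start-site region in every library. Its local background was also raised, at 3.58, 5.0, 2.97, 3.00 and 3.30 times the list median. A weaker region, chr22:21272138-21272288 in exon 1, which reached into its coding part, was found in 3 libraries with folds of 5.49 in 1a, 5.0 in 1c and 2.66 in 2c.

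The 201 bases printed for CRKL, chr22:21271513-21271713 on the plus strand, hold the summits of the strong region in all 5 libraries, which fell within 52 bp of each other.
CRKL start-site region: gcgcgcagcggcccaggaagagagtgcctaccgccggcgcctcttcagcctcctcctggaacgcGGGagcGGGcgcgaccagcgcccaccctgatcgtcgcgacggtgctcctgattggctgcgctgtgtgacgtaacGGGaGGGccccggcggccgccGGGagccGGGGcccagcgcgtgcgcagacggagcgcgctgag

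They have 6 runs of 3 or more G and no canonical motif, although the region ranked at a mean percentile of 99.7 by −log10 p.

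GRB2, the adaptor that links the kinase to SOS1, had 2 regions. The one at chr17:73401742-73401970, over the start of GRB2-202, had folds of 7.43, 8.53, 5.33, 3.67 and 6.22 in 1a, 1c, 2a, 2b and 2c, a mean of 6.53 ± 2.05 (SD, n = 2). Within the lists these stood at the 59.2 and 78.6 percentile in 1a and 1c, and at the 18.9, 2.92 and 53.5 percentile in 2a, 2b and 2c, lower in all 3 libraries of replicate 2. The start of the microRNA gene MIR3678 lay within 1 kb. The other, chr17:73389937-73390126 at the start of GRB2-205 in intron 1, was found in 4 libraries, all but 2a, with folds of 7.79, 6.80, 4.12 and 3.79 in 1a, 1c, 2b and 2c. The start of ENSG00000265342, a long noncoding RNA gene, lay within 1 kb of that region.

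SHC1, an adaptor that also passes the signal to GRB2, had 3 regions. Its leading region, chr1:154943148-154943369, over the start of SHC1-202, had folds of 10.6 and 9.15 in 1a and 1c, and 10.2, 7.81 and 6.34 in 2a, 2b and 2c. The peak summits of the 5 libraries fell within 44 bp. A region at chr1:154946883-154947153 was found in all 5 libraries with folds of 7.09, 6.50, 5.92, 6.23 and 4.25, and a region at chr1:154947427-154947514 in 3. The last 2 also lay within 1 kb of the start of CKS1B, a cell cycle gene, so they cannot be given to SHC1 alone.

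GAB2, the scaffold that recruits PI3 kinase and SHP2, had its region at chr11:78128875-78129164, 7 bp before the start of GAB2-203. Its fold was 5.49 and 7.32 in 1a and 1c, and 11.8, 11.7 and 5.25 in 2a, 2b and 2c. Within the lists these stood at the 24.4 and 63.9 percentile in 1a and 1c, and at the 96.4, 98.1 and 31.4 percentile in 2a, 2b and 2c, so the libraries of replicate 2 fell both high and low. It ranked between 1st and 7th of the 7 genes. This was the most guanine- and cytosine-rich region of the 15, with a GC content of 82.1%, and its minus strand had 12 runs of 3 or more G without a canonical motif inside the region.
GAB2 start-site region: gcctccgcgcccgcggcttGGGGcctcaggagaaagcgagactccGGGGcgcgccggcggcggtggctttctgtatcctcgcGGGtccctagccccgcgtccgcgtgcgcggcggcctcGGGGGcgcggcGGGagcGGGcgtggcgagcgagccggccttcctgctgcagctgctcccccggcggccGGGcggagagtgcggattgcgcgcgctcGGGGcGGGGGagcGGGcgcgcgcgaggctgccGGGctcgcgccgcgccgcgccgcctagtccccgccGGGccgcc

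A canonical motif lay at its edge, GGGAGGCCAGGGGCGGGGCGGG at chr11:78128855-78128876 on the plus strand, which began 20 bases before the region. SOS1, the exchange factor that loads RAS with GTP, had a region at chr2:39351449-39351732 over the start of SOS1-203, with the summit at −3395 bp from the MANE start. Its folds were 8.28, 10.4, 7.76, 8.14 and 5.62 in 1a, 1c, 2a, 2b and 2c. Its local background was the lowest of the 7 by mean, at 0.78 to 0.85 times the list median. Near the MANE start 1a alone had a peak at chr2:39348099-39348333, with a fold of 7.60, and 2c alone one at chr2:39347611-39347735, with a fold of 4.17.

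**Figure D4:**
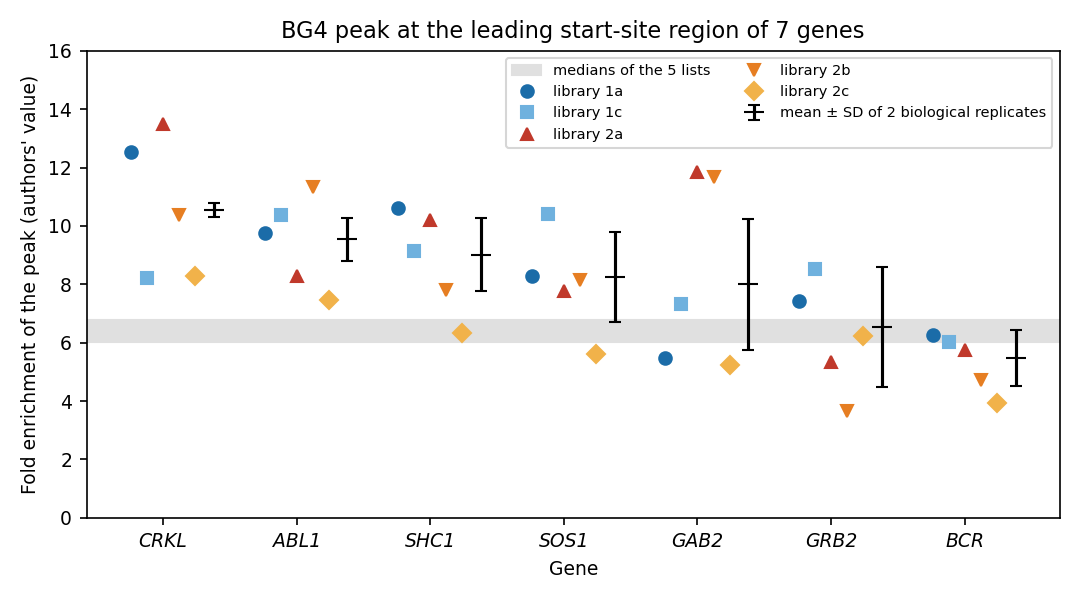
Fold enrichment (authors' value) of the peak at the leading start-site region of the 7 genes that have one, by library, with the mean ± SD of the 2 biological replicates in black; the grey band spans the medians of the 5 lists, 6.03 to 6.78. CRKL is highest by mean at 10.6 and BCR lowest at 5.47, and the libraries of most genes overlap.

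Ordered by mean fold over the 2 biological replicates, the leading regions ran CRKL at 10.6 ± 0.251, ABL1 at 9.54 ± 0.739, SHC1 at 9.01 ± 1.25, SOS1 at 8.26 ± 1.54, GAB2 at 8.0 ± 2.25, GRB2 at 6.53 ± 2.05 and BCR at 5.47 ± 0.956 (SD, n = 2). The gap between CRKL and ABL1, 1.01, was larger than the larger SD of the pair, 0.739, but ABL1 stood above CRKL in 1c and 2b. No other pair of neighbours in that order differed by more than its larger SD. With 2 replicates no test was made. The pair most alike in mean percentile of fold over the 2 biological replicates was ABL1, at 84.4, and SHC1, at 80.2, a difference of 4.19 percentage points. ABL1 and CRKL, at 88.7, were nearly as close, with a difference of 4.33. Of the 15 regions 9 overlapped a CpG island, against 88.1% of all regions, and their median GC content was 65.8%, against 70.1%. The BCR regions in introns overlapped none. Among the 12 regions at start sites 9 did, against 96.3% of all regions at start sites of protein-coding genes. The median GC content of those at start sites was 67.1%, against 71.0%.

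STAT5A and STAT5B, the transcription factors at the end of the pathway, lie head to head on chromosome 17 and had no high-confidence region by the rule. They shared a peak in intron 1 of STAT5A, within 1 kb of a start site of each gene, chr17:40441176-40441535 in 1a with a fold of 8.65, and chr17:40441250-40441367 in 2c with a fold of 5.59. STAT5B also had peaks at its MANE start in 1c and 2c, with folds of 4.58 and 4.39. STAT5A had peaks at chr17:40457799-40457933 in 1c, with a fold of 6.26, and in the untranslated part of exon 19, in 1a and 2c, with folds of 5.23 and 4.25. Neither gene had a peak in 2a or 2b. PTPN11, which encodes SHP2, had 1 peak in 2c, chr12:112856942-112857115, with a fold of 5.12.

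A strong region lay just outside the rule. At chr17:40464355-40465123, 394 bp past the end of STAT5A and within 1 kb of no annotated gene start, all 5 libraries had a peak, with folds of 14.1 and 11.4 in 1a and 1c, and 10.4, 7.03 and 7.46 in 2a, 2b and 2c. In 1a, 1c and 2a this was higher than at the leading regions of ABL1 and BCR in the same list, and its local background was 0.71 to 1.42 times the list median. A region before BCR, chr22:23520748-23520882, ended 1009 bp before the start of the gene, just outside the window of 1 kb, and was found in 4 libraries.

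Of 35 other genes of BCR-ABL1 signalling 24 had a high-confidence region within 1 kb of a start site (68.6%). A peak there in all 5 libraries was found at 16 of the 35, against 23.7% of all genes. The strongest were the kinase gene PIM1, a STAT5 target, with folds of 9.58 to 15.6, then HRAS with 8.20 to 13.1, CISH, another STAT5 target, with 8.24 to 11.2, and the phosphatase gene PTPN1 with 8.13 to 15.1. No peak in any library was found there at 8 of the 35, AKT1, CCND1 and DOK2 among them. Of 17 paralogues of the 10 genes, CRK being on both lists, 7 had a high-confidence region (41.2%). STAT3 had folds of 7.18 to 16.5, STAT2 6.88 to 12.5 and CRK 6.74 to 13.0, and these 3 had a peak in all 5 libraries. ABL2 and ABR, the closest relatives of ABL1 and BCR, had no peak at a start site in any library, nor did GAB3 and GRAP. These lists are descriptions beside the background of 35.5% of all genes for high-confidence regions, and no test over them was made.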

How the data were processed

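The 5 K562 BG4 libraries were used, grouped by the labels. Peaks were called with MACS2 on hg19 (GRCh37), per the submitters' processing notes, in 1 list per library. The aligner, control library, settings and version are not given in the sources used here. The deposited score is −log10 p multiplied by 10 and cut to a whole number, the deposited fold is the ratio of summit signal to local background, and the deposited −log10 p and −log10 q are those of the summit. Peak names in lists 2a and 2c carry each other's letter, and the sample labels were followed. The high-confidence list holds positions alone, and all 8940 of its regions outside the mitochondrial genome were identical to stretches covered by at least 3 of the 5 lists.

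Start sites of all transcripts were taken from GENCODE release 44 mapped to GRCh37, and an overlap of 1 base counted. No interval ran past a chromosome end of this build. The mitochondrial genome was left out. Reads and background at a summit were solved from fold = (reads + 1)/(background + 1) and the Poisson p, with a tolerance of 0.001 on −log10 p, a step added after the data were seen. In 2c the reads were whole only with a common factor of 0.641. The step was tested on data simulated from the same formula, which does not check the formula itself. Many BCR peaks had a higher local background than any simulated peak. CpG islands were windows of 200 bp with at least 50% GC and a ratio of observed to expected CpG from 0.6 up. A leading region is the start-site region of a gene found in the most libraries, and among those the one with the highest mean fold. Technical libraries were averaged within a replicate before the SD. Depth is unknown, and no test was made, since there is 1 group.

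All 10 genes are named. From each other list up to 4 genes with the highest lowest percentile of fold and the first 4 in alphabetical order with no peak are named, except that some are not reported here. The genes and lists were chosen with earlier results of these data known. Alternatives were the window, transcripts, p threshold, overlap, number of libraries, motif, island and each library left out. Python 3.11.15, pandas 2.3.3, NumPy 2.4.6, SciPy 1.17.1, pysam 0.24.0, samtools 1.23.1 and matplotlib 3.10.9 were used.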

Additional observations from a re-analysis of the deposited data

Results flagged for a closer look

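Within the 5 libraries, the count of peaks at 3 of the genes had 1 library apart from the other 4, which were tied. With 4 tied counts the check marks any difference, even of 1 peak. ABL1 had 3 peaks in library 1a and 1 in each other library. GRB2 had 1 peak in 2a and 2 in each other library. PTPN11 had 1 peak in 2c and none in the others. The same check on the fold enrichment of the 9 regions found in all 5 libraries marked none. Chance marks about 1 in 20 groups of untied values, a rate that does not hold for these tied counts. The libraries are also not independent, since 2 of the 5 share a biological replicate and 3 share the other.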

How the results depend on the processing

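The 7 genes with a high-confidence region within 1 kb of a start site were kept under every alternative run. Each had a leading region with a peak in all 5 libraries. Runs that left out a library or changed the number needed could therefore hardly drop one. Peaks in 2 or more libraries added STAT5A and STAT5B, and 41.2% of all genes then had a region, against 35.5%. Of the alternatives to the main counts 64 stayed within 1.5 times and 12 moved. With −log10 p of at least 10, genes with a peak in all 5 libraries numbered 4 in place of 7, and regions at the genes 9 in place of 15. At that threshold 25.5% of all genes had a region within 1 kb of a start site, in place of 35.5%. With regions required in all 5 libraries there were 9 at the genes and 1 inside them in place of 3, and 22.8% of all genes had one in place of 35.5%. With 2 or more libraries there were 29 at the genes and 12 inside them. Regions with a G4 motif numbered 1, but 3 with loops of up to 12 bases, 13 with runs of 2 or more G and 2 with regions widened by 50 bp. BCR peaks up to the end of exon 14 averaged 13.3 over the 2 biological replicates, 5.67 with −log10 p of at least 10 and 2.92 without the lowest 5% of each list by fold, both chosen after seeing the data. For the fold and percentile of single genes, 50 values moved by less than the SD between the biological replicates and 6 by more, 5 of them for CRKL, whose SD was small, and 1 for BCR. The mean fold of CRKL ranged between 9.48 and 11.6 when each library was left out. No paired analysis was possible because there is 1 group. The short lists of replicate 2 limit what can be seen inside the genes.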
